A study of Mus musculus with 2 samples.

Results

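The subject is 8 genes for channels that join neighbouring cells or open to the outside: the connexin genes Gja1, Gjb2, Gjb6, Gjc1, Gjc3 and Gjd2 and the pannexin genes Panx1 and Panx2. They are the 8 rows of these symbols among the 17359 genes of the deposited table. The members were selected on a comparison of TPM (a level per transcript length, with the same total in each library) between the siChd4 and the siSCR library, so those values are given as a description. The cells were mouse neural stem cells in culture. The control (siSCR, genotype control) was transfected with a scrambled small interfering RNA (siRNA), which has no intended target, and the other group (siChd4, genotype Chd4 knockdown) with an siRNA against Chd4, which encodes an ATPase that remodels chromatin as part of NuRD. The strain, age and brain region of the cells, and the siRNA sequence, dose and time, are not known from the labels. Each group was 1 library, so no difference below has a check against the spread between cultures, and intervals cover counting error only.

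Connexins are membrane proteins that assemble into hexameric hemichannels. Hemichannels of adjoining cells dock to form gap junctions, which pass ions and small metabolites, and undocked hemichannels can open to the outside. Pannexins share the membrane topology of connexins but do not commonly dock, and act as large-pore channels, best known for the release of ATP. In the developing brain, gap junctions couple radial glia, neurons use a connexin for electrical synapses, and oligodendrocytes carry a set of their own.

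The siSCR library held 19816811 estimated read counts and the siChd4 library 20072009. Chd4 was at 250 TPM in siSCR and 203 TPM in siChd4, a fold of 0.815 (95% interval 0.795 to 0.836), so the targeted transcript was lower by a small amount. Differences are given as log2 ratios, siChd4 over siSCR, of TPM plus 1. Over the 12882 genes whose mean TPM reached 1, this ratio had a median of -0.04 and its middle 50% lay between -0.24 and 0.17. The ratio of Chd4 was -0.29, and 19.4% of these genes had a lower one. All 20 astrocyte and radial glia markers of a list were above that minimum in these cells, with a summed level of 14006 TPM in siSCR and 17052 TPM in siChd4.

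The connexin and pannexin genes differed between the libraries in both directions. Gja1 was lower in siChd4, Gjd2 and Gjc3 were higher, and Gjc1, Panx1 and Gjb6 lay between the 1.5-fold limits. Of the 8 members, 6 had a mean TPM of at least 1; Gjb2 and Panx2 did not. At least 1.5-fold higher on TPM plus 1 were 2 of the 6, where 6.75% of all genes were, and at least 1.5-fold lower was 1, where 4.47% were. At 2-fold, 1 member was higher (Gjd2, background 2.26%) and 1 lower (Gja1, background 0.629%). Because the members were picked on this same contrast, nothing is read from these counts.

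The promoter windows of Gja1 and Gjd2, the members furthest below and above the control, are shown because they are unlike in composition. Each is the 250 bases before the transcription start, from the RefSeq table of build GRCm38.p6. For Gja1 this is chr10:56377050-56377299 on the plus strand, and for Gjd2 chr2:114013620-114013869 on the minus strand. Capitals mark a match to TGANTCA, the core that AP-1 factors bind, in Gja1, and to GGGCGG, the GC box that Sp1 factors bind, in Gjd2.
Gja1: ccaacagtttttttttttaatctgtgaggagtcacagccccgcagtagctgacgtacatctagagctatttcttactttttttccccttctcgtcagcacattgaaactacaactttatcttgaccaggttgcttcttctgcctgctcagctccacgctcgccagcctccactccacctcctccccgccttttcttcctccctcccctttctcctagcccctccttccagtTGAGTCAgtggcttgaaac
Gjd2: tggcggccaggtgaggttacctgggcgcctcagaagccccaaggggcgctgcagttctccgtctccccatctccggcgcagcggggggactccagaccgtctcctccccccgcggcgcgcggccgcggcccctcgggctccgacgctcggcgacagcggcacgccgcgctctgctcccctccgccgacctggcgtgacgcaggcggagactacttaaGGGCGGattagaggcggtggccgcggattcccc

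Over the full 300 bases, which run to 50 after the start, the Gja1 window had 47.7% GC and 8 CpG dinucleotides, and the Gjd2 window 75% GC and 41 CpG dinucleotides. The median of all 32851 windows in that table was 52.7% GC and 7 CpG dinucleotides, and 3.46% of windows had as many as Gjd2 or more. The other windows at hand were rich in CpG for Gjb2 (27) and Panx1 (25) and close to the median for Gjb6 (6) and Gjc3 (5). Of the members higher in siChd4, Gjd2 thus had an unusually CpG-rich window and Gjc3 did not.

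Both strands of the windows of 6 members were searched for 5 short motifs; Gjc1 and Panx2 had no window in the table. TGANTCA was found in Gja1 alone among the 6, beginning 19 bases before the start, and in 7.81% of all windows. GGGCGG was found in Gjb2 and Gjd2 and in 35.7% of all windows. TGACG, the core of a cyclic AMP response element, was found in Gja1, Gjb2, Gjd2 and Panx1 and in 20.8% of all windows. CAGCACC and GGACAGC, parts of the RE1 element that the neuronal gene repressor REST binds, were found in none of the 6 and in 7.14% and 6.56% of all windows. A search for exact matches to these parts in short windows cannot show that a gene lacks an RE1 element. The motifs do not overlap in the matches found, and a match of letters is not a measured site.

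Gja1 (Entrez 14609) encodes the main connexin of astrocytes and radial glia. Its level was 105 TPM in siSCR and 40.8 TPM in siChd4, from 2543 and 1038 estimated counts. The siChd4 library was the low one, with a fold of 0.387 (0.360 to 0.416) and a log2 ratio of -1.35. A lower log2 ratio was found for 25 of 12882 genes. Gja1 went from the 88.7th to the 71.5th percentile of level among all genes of the table. In bulk RNA, fewer cells of a type and less RNA per cell cannot be told apart.

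Gjb6 (Entrez 14623) and Gjb2 (Entrez 14619) encode connexins that astrocytes also carry and that are best known from the supporting cells of the inner ear. Gjb6 was at 1.14 TPM in siSCR and 1.62 TPM in siChd4, from 15.9 and 24.9 counts. Gjb2 was at 0.32 and 0.26 TPM, from 6 and 5 counts. The intervals of their folds, 0.729 to 2.85 for Gjb6 and 0.196 to 3.20 for Gjb2, include 1, so a difference was not detectable at this depth. These genes lie next to each other in the RefSeq order of protein-coding genes present in the table, with Gja3, a lens connexin gene, on the other side of Gjb2 at 0.10 and 0.05 TPM.

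Gjc1 (Entrez 14615) encodes a connexin of the heart's conduction system, of vascular smooth muscle and of developing neurons. It was at 50.3 TPM in siSCR and 36.0 TPM in siChd4, from 771 and 578 counts. Its fold was 0.716 (0.642 to 0.799) and its log2 ratio -0.47, and 8.03% of all genes had a lower ratio. Gjc1 was thus lower by more than counting error, but within the 1.5-fold limit.

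Gjd2 (Entrez 14617) encodes the connexin of electrical synapses between neurons. It was at 1.68 TPM in siSCR and 9.57 TPM in siChd4, from 35.9 and 219 counts. The siChd4 library was the high one, with a fold of 5.70 (3.99 to 8.35) and a log2 ratio of 1.98, and 31 of the 12882 genes had a higher ratio. Neuron markers stood higher in the same library: 13 of 13 tested had a log2 ratio above 0, where the median of all genes was -0.04. Of the 13, 6 were at least 1.5-fold higher, where 6.75% of all genes were. The summed level of the 15 neuron markers in the table was 558 TPM in siSCR and 754 TPM in siChd4, with none at 0 in either library. Their part in the Gjd2 value was not tested.

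Gjc3 (Entrez 118446) encodes a connexin of myelinating glia. It was at 2.01 TPM in siSCR and 4.43 TPM in siChd4, from 56.1 and 131 counts. Its fold was 2.20 (1.60 to 3.07) and its log2 ratio 0.85, with 3.25% of all genes higher. Oligodendrocyte lineage markers had 9 of 11 tested genes above 0, where the median of all genes was -0.04. Of the 11, 7 were at least 1.5-fold higher, where 6.75% of all genes were. The summed level of these markers was 2911 TPM in siSCR and 3027 TPM in siChd4, with none at 0. Their part in the Gjc3 value was not tested. Gjb1, another connexin gene of myelinating glia, was near the limit of detection, at 0.52 and 1.01 TPM, from 6.05 and 13.0 counts, and the interval of its fold (0.689 to 6.23) includes 1.

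Panx1 (Entrez 55991) encodes the widely expressed pannexin that releases ATP. It was at 48.1 TPM in siSCR and 60.4 TPM in siChd4, from 769 and 1019 counts. Its fold was 1.26 (1.14 to 1.38) and its log2 ratio 0.32, above counting error and within the 1.5-fold limit, and 14.8% of all genes were higher. Panx2 (Entrez 406218), a pannexin gene of neurons, was at 0.15 and 0.32 TPM, from 4 and 9 counts, where the interval of 0.595 to 9.48 includes 1. Pannexin transcripts in these cells were therefore nearly all Panx1, at 99.7% of the summed pannexin TPM in siSCR and 99.5% in siChd4.

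**Figure D1:**
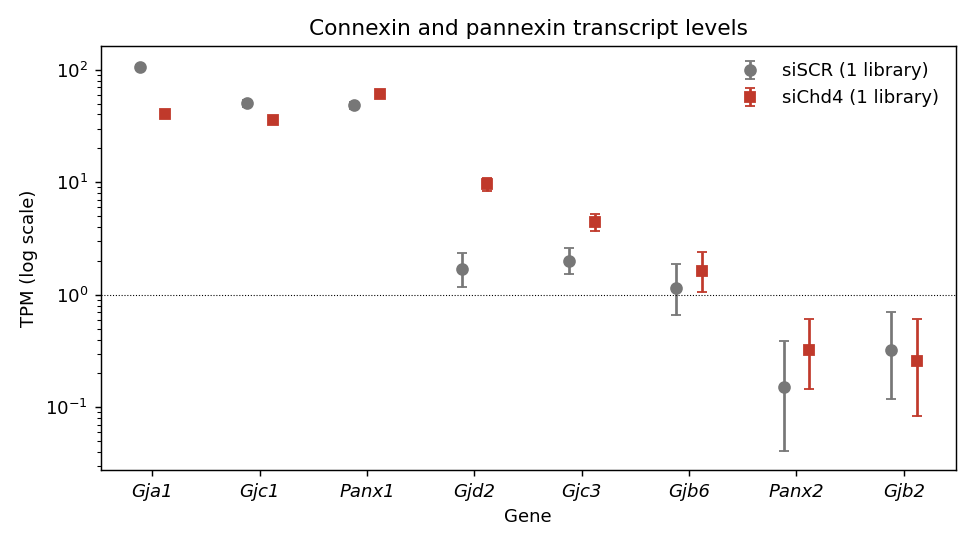
Level of each member in TPM (log axis) in the siSCR library (grey circles) and the siChd4 library (red squares), with exact Poisson 95% intervals of the counts as bars and a dotted line at 1 TPM. Gja1 is the highest in siSCR, at 105 TPM, and is at 40.8 TPM in siChd4, Gjd2 and Gjc3 are higher in siChd4 with intervals that do not meet, and the intervals of Gjb6, Panx2 and Gjb2 overlap.

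**Figure D2:**
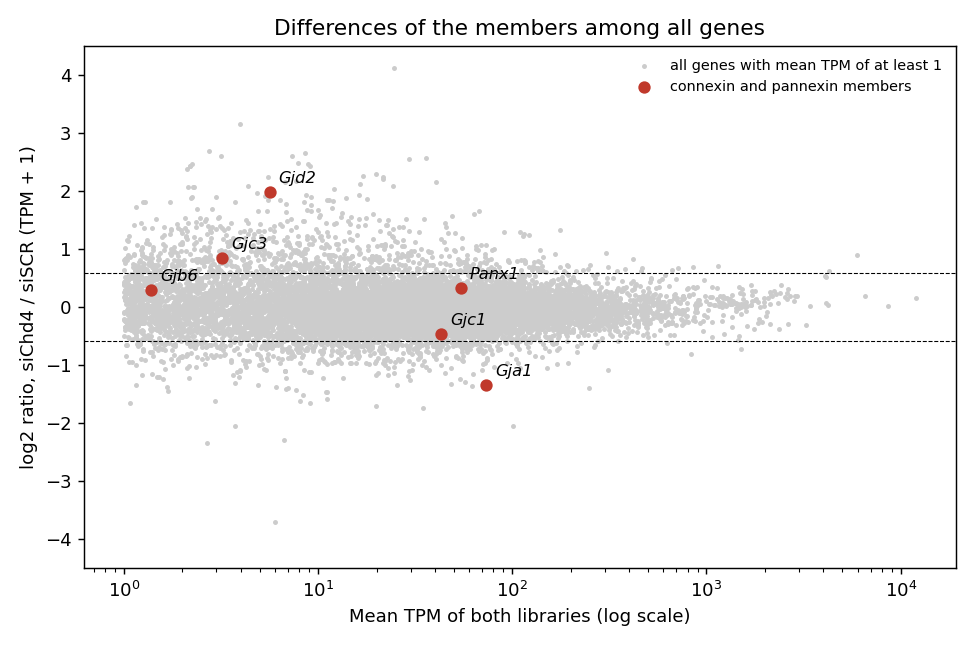
Log2 ratio, siChd4 over siSCR, of TPM plus 1 against the mean TPM of both libraries (log axis) for 12882 genes (grey) and the 6 members among them (red), with dashed lines at 1.5-fold. Gja1 (-1.35) lies at the lower edge of genes of its level, Gjd2 (1.98) in the upper margin, and Gjb6, Gjc1 and Panx1 between the lines.

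The order of levels per length differed between the libraries. In siSCR, Gja1 was highest, at 2.10 times the TPM of Gjc1 (1.93 to 2.27). Gjc1 and Panx1 did not differ beyond counting error there, with a ratio of 1.05 (0.946 to 1.16). In siChd4, Panx1 was highest, at 1.48 times the TPM of Gja1 (1.36 to 1.62), and Gja1 was 1.13 times Gjc1 (1.02 to 1.26). The rank of Panx1 rests on the transcript length of 2026 bases behind its TPM, where annotation lists up to 5732. The interval does not cover this. By estimated counts, Gja1 (1038) and Panx1 (1019) were close in siChd4. Among the low genes, Gjc3 and Gjd2 were not separable in siSCR (interval of their ratio 0.773 to 1.87), while in siChd4 Gjd2 came next after Gjc1, at 9.57 TPM.

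The summed level of the 6 connexin members was 161 TPM in siSCR and 92.7 TPM in siChd4, a ratio of 0.576, and that of the pannexin members was 48.2 and 60.8 TPM, a ratio of 1.26. Gja1 made up 50.4% of the summed TPM of all 8 members in siSCR and 26.6% in siChd4. Panx1 made up 23.0% and 39.4%, Gjc1 24.1% and 23.5%, and Gjd2 0.803% and 6.24%. The Panx1 shares rest on the same transcript length of 2026 bases. Without Gja1, the sum of the other members was 104 TPM in siSCR and 113 TPM in siChd4, so the total was lower in siChd4 with Gja1 counted and higher without it. That sum includes Panx1, at 48.1 TPM in siSCR and 60.4 TPM in siChd4. The connexin members without Gja1 still summed to slightly less in siChd4 than in siSCR.

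**Figure D3:**
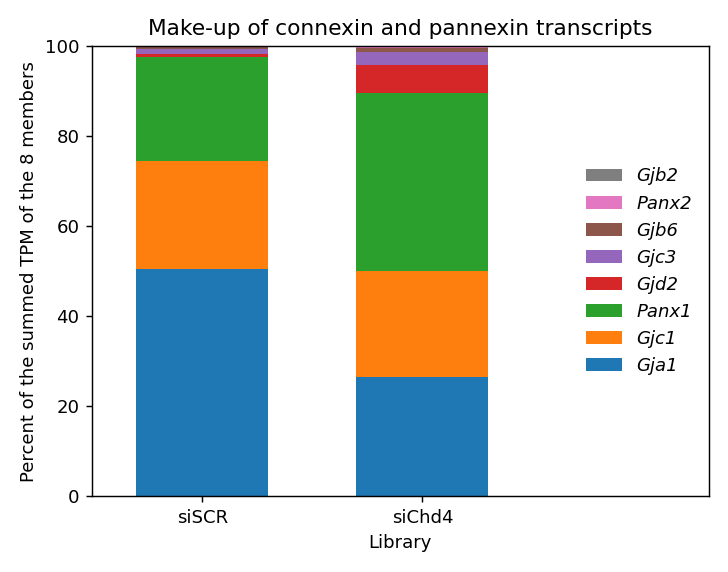
Percent of the summed TPM of the 8 members that each gene takes in the siSCR and the siChd4 library, as bars stacked from 0 to 100. The Gja1 part is 50.4% in siSCR and 26.6% in siChd4, the Panx1 part 23.0% and 39.4%, and the Gjc1 part is nearly equal.

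The table held 12 further connexin and pannexin genes. Gja5, a connexin gene of arterial endothelium and atrial muscle, was the 1 with a mean TPM of at least 1. It was at 3.05 TPM in siSCR and 4.61 TPM in siChd4, from 74.4 and 118 counts, with a fold of 1.51 (1.12 to 2.05) and a log2 ratio of 0.47, within the limit on TPM plus 1. In level it stood above Gjc3 in siSCR (ratio 1.52, 1.06 to 2.19) and could not be told from it in siChd4 (ratio 1.04, 0.805 to 1.34). Endothelial and pericyte markers, of which 3 of 10 in the table passed the minimum, summed to 4.76 TPM in siSCR and 7.30 TPM in siChd4, with Kcnj8 at 0 in siSCR. Their part in the Gja5 value was not tested.

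The remaining 11 family genes were at most at 1.01 TPM and 13.0 counts in either library. Gja4, an endothelial connexin gene, was at 0.54 and 0.29 TPM, and Gje1 at 0.59 and 0.13 TPM. Gja6 and Gjd3 had 0 counts in siSCR and 3.92 and 4.44 in siChd4. Gja10 and Panx3 had 0 counts in siChd4 and 1 and 0.98 in siSCR. Gja3 and Gjb5 had 1 or 2 counts in each library. At such counts no difference between the libraries was detectable.

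The transcript length behind each value, a measure that the choice of members did not use, is the estimated count over FPKM (fragments scaled to transcript length and library size) and the library total. It was 3056 bases for Gja1 in both libraries, 1942 and 1926 for Gjc1, 2026 and 2026 for Panx1, 2707 and 2744 for Gjd2, and 3539 and 3538 for Gjc3. The lengths of these 5 genes in the libraries differed by less than 1.2 times, and 0.881% of 12713 genes lay outside 1.2 times. The count ratios, 0.408 for Gja1, 6.08 for Gjd2 and 2.33 for Gjc3, therefore point the same way as the TPM folds. For orientation, GENCODE M21 lists protein-coding transcripts of up to 3182 bases for Gja1, 2314 for Gjc1 and 2879 for Gjd2, and up to 5732 for Panx1, above the length used here.

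The nearest protein-coding genes of the table on each side of a member, in the RefSeq order, are given where their mean TPM reached 1. Beside Gja1 were Msl3l2 (7.94 TPM in siSCR, 9.10 TPM in siChd4) and Hsf2, a heat shock transcription factor gene (45.7 and 47.2 TPM), with log2 ratios of 0.18 and 0.05 against -1.35. Beside Gjd2 were Arhgap11a (127 and 96.1 TPM, log2 ratio -0.39) and the cardiac actin gene Actc1 (0.21 and 4.08 TPM, from 2.37 and 48.0 counts), which was higher in the same library as Gjd2. Beside Gjc3, Cyp3a13 was at 2.50 and 4.11 TPM (log2 ratio 0.55). Beside Gjb6, Cryl1 was at 19.6 and 13.1 TPM (-0.55), in the direction opposite to Gjb6, and beside Gjc1, Adam11 was at 9.12 and 12.3 TPM (0.39), opposite to Gjc1. Beside Panx1, Gpr83 was at 1.84 and 1.30 TPM (-0.30), and beside Panx2, Trabd was at 41.7 and 40.3 TPM (-0.05). Actc1 reached the minimum only through siChd4, where it was high, and Cyp3a13 lay within the 1.5-fold limit. The other neighbour of Gjc3, Azgp1, was below the minimum and went the other way, at 0.50 and 0.16 TPM from 5 and 1.68 counts. No shared direction of members and neighbours is read from these values.

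By closeness of the log2 ratio, over 2 libraries and among 2509 genes with a mean TPM within 1.5-fold of that of Gja1, the 3 genes most like Gja1 were Ndc1, a nuclear pore membrane protein gene (90.2 and 34.5 TPM, log2 ratio -1.36), Spcs3, a signal peptidase subunit gene (103 and 40.2 TPM, -1.33), and Hmgn5, a nucleosome-binding protein gene (81.5 and 32.5 TPM, -1.30). Of those 2509 genes, 2 had a lower log2 ratio than Gja1.

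Transcripts for scaffolds and adhesion partners of gap junctions differed in both directions. Of 15 tested scaffolds and adhesion partners, 1 was at least 1.5-fold higher and 3 lower, with a median log2 ratio of -0.13 beside -0.04 over all genes. Over all genes, 6.75% were higher and 4.47% lower, which is the background for this and the following lists, so a single gene among 15 is near it. Lower were the caveolin genes Cav2 (94.8 TPM in siSCR and 44.3 TPM in siChd4, 0.468-fold, 0.433 to 0.505) and Cav1 (28.8 and 14.2 TPM, 0.493-fold, 0.427 to 0.570), whose products form membrane pits and bind connexins, and Dlg1, a scaffold gene (48.3 and 31.6 TPM). Higher was Dbn1, the actin-binding drebrin (98.6 and 153 TPM, 1.55-fold, 1.47 to 1.64).

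Among 16 kinases and phosphatases that act on connexins, 1 was higher, the phosphatase gene Ptpn6 (0.81 and 2.21 TPM, from 13.9 and 39.9 counts), 0 were lower, and the median was 0.07. Ptpn6 passed the minimum only through siChd4, where it was high, so nothing is read from its call. Among 18 genes of connexin trafficking and turnover, 0 were higher and 2 lower, with a median of 0.06. The lower ones were Nedd4, a ubiquitin ligase that targets the Gja1 protein (761 and 497 TPM, 0.653-fold, 0.641 to 0.664), and Dab2, an endocytic adaptor gene (6.53 and 3.60 TPM, 0.551-fold, 0.439 to 0.690).

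Of 14 tested genes for other large-pore channels and ATP release, 1 was higher and 2 lower, with a median of -0.19. The lowest ratio was that of Lrrc8d, of the volume-regulated anion channel (30.9 and 15.8 TPM, 0.512-fold, 0.458 to 0.571). Higher was Ttyh1, a channel-like membrane protein gene of neural stem cells (33.8 and 57.2 TPM, 1.69-fold, 1.55 to 1.85). Of 12 tight and adherens junction genes, 2 were higher and 0 lower, with a median of 0.01: Cldn11, a claudin of oligodendrocytes (1.39 and 8.30 TPM), and Nectin2 (17.9 and 28.6 TPM).

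Markers of the cell types that use each connexin are given by list, beside the 6.75% of all genes that were higher and the 4.47% that were lower. Astrocyte and radial glia markers, the cells of Gja1, had 4 of 20 at least 1.5-fold higher and 3 lower, a median of 0.20, and none at 0. Among them Sparcl1 (653 and 1059 TPM) and Apoe (546 and 873 TPM) were higher, as was Hopx (43.5 and 70.6 TPM). Lower were Prom1 (8.37 and 4.72 TPM), Cd44 (57.9 and 35.7 TPM) and the glutamate transporter gene Slc1a2 (94.1 and 58.4 TPM). The summed level of this list was higher in siChd4 while Gja1 was lower. A sum of TPM weights abundant genes most. Of the 20, 14 had a log2 ratio above 0 and 6 below, where the median of all genes was -0.04. Those below also include Slc1a3 (-0.51), S100b (-0.27) and Aqp4 (-0.19).

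Neuron markers had 6 of 13 higher, 0 lower and a median of 0.52, led by Tubb3 (8.70 and 40.0 TPM), Ina (11.4 and 34.3 TPM) and Dcx (3.71 and 10.9 TPM). Oligodendrocyte lineage markers had 7 of 11 higher, 0 lower and a median of 0.95, led by Sox10 (1.05 and 7.71 TPM) and Cldn11. Within each list the ratios were uneven: the abundant Olig1 and Olig2 had log2 ratios of -0.01 and -0.02, Cspg4 0.10 and Elavl4 0.18, which are named after their values were seen.

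Other cell types were sparse. Of the microglia list, 2 of 9 genes in the table passed the minimum, with P2ry12 at 6.84 and 36.1 TPM; the list summed to 41.9 TPM in siSCR and 72.0 TPM in siChd4, with Aif1 at 0 in siSCR and C1qa and C1qc at 0 in siChd4. Fibroblast, meningeal and smooth muscle markers, of cells that can carry Gjb2, Gjb6 and Gjc1, summed to 33.0 and 33.8 TPM, with Dcn and Lum at 0 in siSCR. There, Tagln (2.14 and 6.53 TPM) and Col1a1 (0.64 and 1.96 TPM) were higher and Fn1 (16.9 and 10.6 TPM) lower. Col1a1 passed the minimum only through siChd4, where it was high, so nothing is read from its call. The endothelial list had 0 of 3 past the limit, with Eng at 0.98 and 1.87 TPM and Flt1 at 1.31 and 1.53 TPM. Ependymal and choroid plexus markers had 0 of 5 higher and 1 lower, Enkur (2.20 and 1.08 TPM), where the interval of 0.205 to 1.10 includes 1, and Folr1 was at 0 in siSCR.

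**Figure D4:**
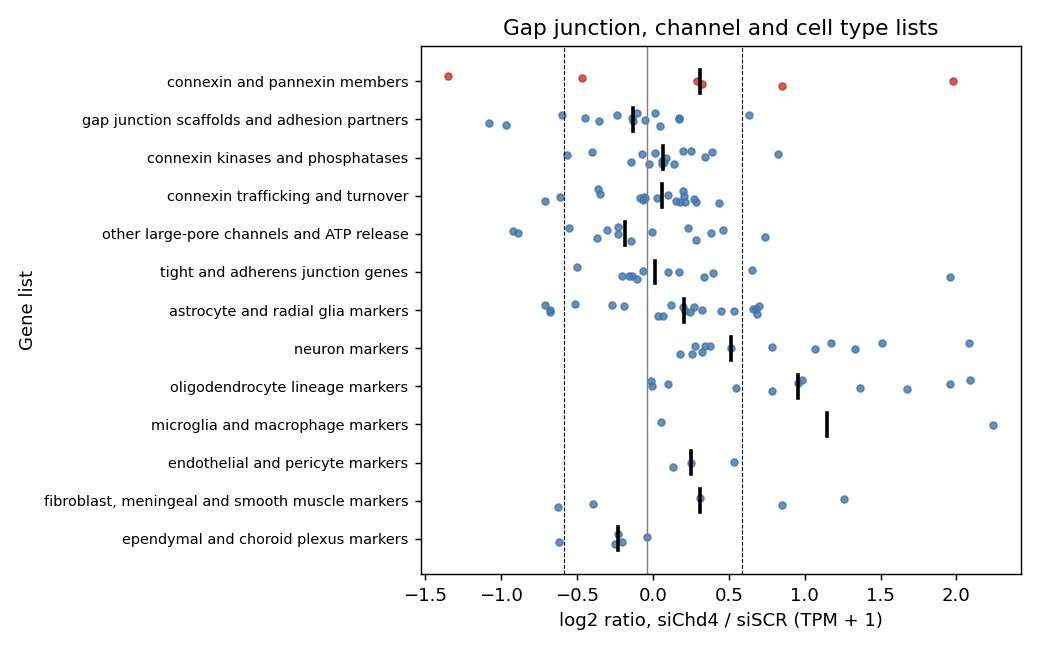
Log2 ratio of siChd4 over siSCR (TPM plus 1) of each gene whose mean TPM reached 1, by list, with the 6 members in red, other genes in blue, the median of each list as a black bar, the median of all genes (-0.04) as a grey line and 1.5-fold as dashed lines. The members spread from -1.35 to 1.98, while the neuron and oligodendrocyte lineage lists have medians of 0.52 and 0.95 and none of their genes is past the lower line.

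The directions of Gja1, Gjd2 and Gjc3 held under each unit, scaling and pseudocount tried. These settings re-express the same 2 libraries and moved the median of all genes by at most 0.06. They could hardly reverse differences of this size, so the result is no further support for them. The log2 ratio of Gja1 lay between -1.37 and -1.26, that of Gjd2 between 1.57 and 2.44, and that of Gjc3 between 0.66 and 1.10. Gjc1 stayed between -0.48 and -0.40 and Panx1 between 0.32 and 0.38, both within the 1.5-fold limit. Past 1.5-fold on FPKM were 721 higher and 295 lower genes, against 870 and 576 on TPM.

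**Figure D5:**
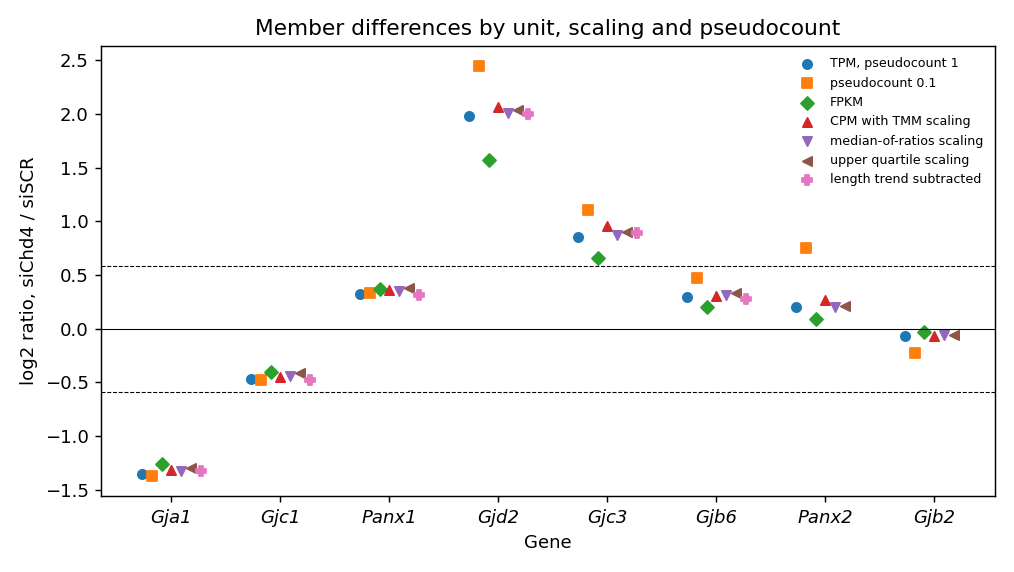
Log2 ratio, siChd4 over siSCR, of each member (x axis) for TPM plus 1 and under 6 other choices of pseudocount, unit, scaling or length correction, with dashed lines at 1.5-fold. Gja1 stays below the lower line and Gjd2 and Gjc3 above the upper line in all settings shown, and Panx2, from 4 and 9 counts, passes the upper line with a pseudocount of 0.1.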

How the data were processed

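RNA of mouse neural stem cells was sequenced, 1 library per group, with groups from the sample titles. The authors deposited FPKM, TPM and estimated counts per gene, named so in the file headers. TPM sums to 1000000 in each library. The submitters' processing notes name build mm39; no aligner or counting tool is named in the sources at hand.

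Log2 ratios used TPM with a pseudocount of 1, which understates differences of low genes, over genes whose mean TPM reached 1. Folds are of TPM, with exact Clopper-Pearson 95% intervals on rounded counts. With single libraries no test was made. The interval code was tested on simulated data. A floor of 3 counts was 0.151 CPM in siSCR and 0.149 CPM in siChd4. TMM scaling used edgeR 4.0.16; the rest used Python 3.11.15, scipy 1.17.1 and statsmodels 0.14.6.

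The members and the 12 further gene lists were chosen with earlier results of these data known. Named are all family genes, Chd4, up to 3 genes per direction of each list past 1.5-fold (or its 2 most abundant), and the 3 genes nearest Gja1, without Gm, Rik and LOC symbols. Some genes that this takes are not reported here. Promoters and neighbouring genes, from RefSeq tables of GRCm38.p6, were added after the data were seen. A planned comparison of the proteins was not run.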

Additional observations from a re-analysis of the deposited data

How the results depend on the processing

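All 46 values of the members' log2 ratios under other settings differed from the value on TPM plus 1 by less than the log2 distance from the TPM fold to its interval bound on that side. Genes at least 1.5-fold higher numbered 533 with a mean TPM of at least 5, and 291 were 2-fold higher; 295 were 1.5-fold lower on FPKM and 81 were 2-fold lower. The members past the upper limit numbered 1 with a mean TPM of at least 5, where Gjc3 is not tested, and 1 at 2-fold. Of the listed genes, 12 were lower on TPM. Under the other settings this number ran from 6 on FPKM to 14 with a pseudocount of 0.1. It was 9 with TMM scaling, 9 with upper quartile scaling and 8 with the length correction. Of the genes named as lower, Dlg1 (-0.60), Nedd4 (-0.61), Enkur (-0.62) and Fn1 (-0.63) had log2 ratios close to the 1.5-fold limit, so their calls depend on the setting. FPKM values are smaller than TPM (Gja1 at 42.0 against 105 in siSCR), so the same pseudocount of 1 shrinks ratios more. The median log2 ratio of all genes was also 0.05 higher on FPKM. The part of each was not tested. Shares by estimated counts, which are not per length, were 60.5% in siSCR and 34.3% in siChd4 for Gja1, 18.4% and 19.1% for Gjc1, and 18.3% and 33.7% for Panx1. Over all 20 family genes, the share of Panx1 in siChd4 was 37.7%. Median-of-ratios, upper quartile and TMM scaling moved the median of all genes by at most 0.06. Depth limits Gjb2, Gjb6 and Panx2. Leaving out a library was not possible. No paired analysis was possible because there was 1 library in each group.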
